A study of Mus musculus with 15 samples.

Results

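The large intestine of male C57Bl/6 mice aged 4 weeks was compared between animals given the low dose of a non-polar algal extract, 0.3 g/kg, and animals given the vehicle. Both groups hold 3 libraries, numbered 26, 27 and 29 for the extract and 2, 4 and 5 for the vehicle, 6 of the 15 libraries of the series. The extract was dissolved in Chremophor EL (spelled as in the labels) with 10% DMSO and given by oral gavage on 3 consecutive days, 24 h apart, and the intestine was collected 12 h after the final gavage. The labels call the control samples vehicle controls, do not name the alga, and leave unsaid if each library came from its own mouse. P-values therefore measure the spread between these libraries, which may be technical. Other groups received the extract at 1.0 g/kg or cymopol, a brominated hydroquinone of green algae. Genes were taken by Ensembl gene identifier. Of 27956 identifiers with a value in all 6 tables, 687 (2.46%) reached an FPKM of 1 in 3 or more libraries and were tested. FPKM counts fragments per kilobase of transcript, scaled by the depth of the library.

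The tables list a transcribed gene either under its identifier or as a locus assembled anew in that library, so those 687 genes leave out most of the tissue's transcripts. The keratin Krt8 and the smooth muscle actin Acta2, for example, had their own identifier in 3 of the 6 tables. Assembled loci whose span matched a gene brought the set to 5861 genes, of which the 687 are 11.7% and 3271 had an identifier of their own in none of the 6 tables. The smaller set is called the listed genes below and the larger set the matched genes. The listed genes comprise 607 protein-coding genes, 17 small nucleolar RNAs, 11 small nuclear RNAs and other types. In the matched genes 5686 are protein-coding.

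NRF2 is a transcription factor held at low level by KEAP1, which presents it to a CUL3 ubiquitin ligase. Electrophiles such as quinones modify cysteines of KEAP1, NRF2 accumulates, and genes with an antioxidant response element are transcribed, among them quinone reductases, glutathione transferases and the enzymes of glutathione and NADPH supply. In the colon these genes are expressed mainly in the epithelium that faces the gut content. Below, an FPKM is given for each library in the order 2, 4, 5 for the vehicle and 26, 27, 29 for the extract, and a difference is the mean log2(FPKM + 1) of the extract libraries minus that of the vehicle libraries, ± its standard error (n = 3 and 3).

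The libraries differed more in scale than the groups did. Library 2 of the vehicle and library 26 of the extract stood apart, with a median FPKM over the matched genes of 0.525 and 0.103, against 8.98 and 4.47 in the other vehicle libraries and 4.25 and 5.09 in the other extract libraries. Genes listed at 0 made up 22.7%, 6.47% and 23.8% of the matched genes in the vehicle libraries and 36.1%, 1.67% and 9.32% in the extract libraries. Depth in protein-coding genes, estimated from the width of the deposited FPKM intervals, ranged from 25265 to 227401 fragments among vehicle libraries and from 28592 to 107206 among extract libraries. Such an estimate takes the interval as counting error alone, so one under 1 marks a wide interval and is no number of molecules. By library, 7.57% to 43.5% of the matched genes at an FPKM of 1 or more had an estimate under 1. The share of all estimated fragments that lay in genes, assembled loci included, was lowest in library 2. It was 8.56%, 34.1% and 46.6% in the vehicle libraries and 33.4%, 66.2% and 54.0% in the extract libraries. Because genes that every cell uses are among those at 0, a value of 0 is given as listed at 0 and not as absence. Differences were therefore also computed after dividing each library by a median-of-ratios size factor, from 0.117 in library 26 to 3.42 in library 4, and these are called scaled. The correlation of log2(FPKM + 1) over the matched genes was 0.247 to 0.260 between vehicle libraries and 0.419 to 0.562 between extract libraries. Between a vehicle and an extract library it was 0.287 to 0.451, each above that of any pair of vehicle libraries.

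**Figure D1:**
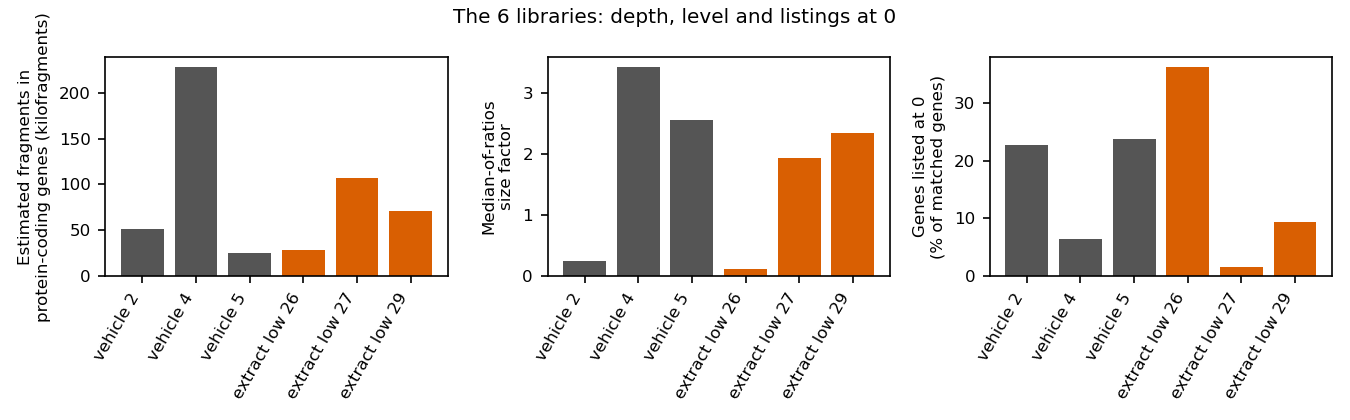
Bars show, for each of the 6 libraries (vehicle grey, extract low dose orange), the estimated fragments in protein-coding genes (in kilofragments), the median-of-ratios size factor and the percentage of the 5861 matched genes listed at 0. Vehicle library 2 (size factor 0.257) and extract library 26 (0.117) lie far under the other 4 in size factor, 1 in each group.

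Epithelial and smooth muscle markers of the labelled tissue were present. All 10 epithelial markers were tested among the matched genes, and Epcam, an epithelial adhesion molecule, stood at 2.82, 62.1 and 68.5 FPKM in the vehicle libraries and 3.79, 51.4 and 52.7 in the extract libraries. All 10 smooth muscle markers, 8 of 10 goblet cell markers and 11 of 12 surface colonocyte markers were tested as well. Of the adipocyte markers 11 of 12 were tested too. No marker of neutrophils (8), pancreatic acinar cells (8), T or NK cells (10) and B or plasma cells (9) reached the filter, but single libraries held some at high level. The highest value was 179 FPKM for a B or plasma cell marker and 32.0 FPKM for a T or NK cell marker, both in vehicle library 4.

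The 3 short RNAs below are among the genes whose groups did not overlap, and their sequences are shown because their lengths of 134 to 137 bases bear on how few fragments stand behind an FPKM. They are taken from GENCODE M21 on GRCm38. Capitals mark the Sm protein binding site AATTTTTTG in the small nuclear RNA Rnu11 and the ACA box, 3 bases before the end, in the small nucleolar RNAs. Among GENCODE small nuclear RNA transcripts 15 of 1383 (1.08%) hold that Sm sequence on the transcript strand, and 276 of 1507 small nucleolar RNA transcripts (18.3%) end with that placement of ACA.
Rnu11: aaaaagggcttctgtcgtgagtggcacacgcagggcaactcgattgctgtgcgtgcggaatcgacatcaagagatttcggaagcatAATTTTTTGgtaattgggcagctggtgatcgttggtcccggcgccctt
Gm25791: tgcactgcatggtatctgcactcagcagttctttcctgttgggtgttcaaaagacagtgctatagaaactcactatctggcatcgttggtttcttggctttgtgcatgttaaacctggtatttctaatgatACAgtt
Snora21: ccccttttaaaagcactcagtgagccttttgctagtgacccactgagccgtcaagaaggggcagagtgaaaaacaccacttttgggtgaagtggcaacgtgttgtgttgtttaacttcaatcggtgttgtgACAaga
Rnu11, the U11 RNA of the minor spliceosome, lies at chr4:132270080-132270213 on the minus strand, where an exon of the lincRNA Gm28872 overlaps it on the other strand. Gm25791 lies at chr9:15314845-15314981 on the plus strand within an exon of Taf1d, with the miRNA gene Gm49349 in the same place. Snora21 lies at chr11:97781639-97781775 on the minus strand in an intron of the ribosomal protein gene Rpl23. Reads of such overlapping genes cannot be told apart in these tables, since nothing states that strand was used in counting.

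No listed gene passed limma's test at a Benjamini-Hochberg adjusted p under 0.05, neither higher with the extract (0 of 687, 0%) nor lower (0 of 687, 0%). The smallest adjusted p was 0.999. At an unadjusted p under 0.05, limma gave 5 higher genes (0.728%) and 2 lower genes (0.291%). Complete separation of the 2 groups was seen for 10 genes higher with the extract (1.46%) and 6 lower (0.873%). An exact test of 3 against 3 cannot go under 0.1 for a single gene. The median difference over the listed genes was 0.00.

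The small nuclear RNA Gm25099 was listed at 0 in all 3 vehicle libraries and stood at 4.25, 49.0 and 101 FPKM in the extract libraries. The difference was 4.90 ± 1.70, with the smallest unadjusted p of the listed genes that separated the groups (0.00390, limma) and an adjusted p of 0.999. Those values rest on an estimated 1.00, 1.99 and 3.00 fragments, so few stand behind each, and the gene passed the filter only through the extract group. With median-of-ratios scaling of the listed genes it passed limma's test (adjusted p = 0.0215), as it did with quantile normalization (adjusted p = 0.0290) and with array weights (adjusted p = 0.0204). With scaling of the matched genes it did not pass (adjusted p = 0.0814, limma). Since it was tested only through the group where it is high, these p-values and calls are descriptions and no support for the difference.

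Rnu11 stood at 29.3, 18.8 and 0 FPKM in the vehicle libraries and 109, 239 and 457 in the extract libraries. Every extract library lay above every vehicle library, with a difference of 4.77 ± 2.21 (unadjusted p = 0.0313, limma), on an estimated 22.8, 6.78 and 11.8 fragments. Scaled, the groups were apart only narrowly, with vehicle library 2 at 114 and extract library 27 at 123. With size factors taken from the listed genes they overlapped. U11 recognises the 5′ splice site of the rare introns removed by the minor spliceosome, with U12 as its partner at the branch site. Rnu12, the U12 RNA, was tested too and stood at 12.3, 163 and 0 FPKM against 12.3, 314 and 102, so its groups overlapped.

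The rest of the higher side was mostly protein-coding. Atp5mpl, a small membrane subunit of mitochondrial ATP synthase, was listed at 0 in the vehicle libraries and stood at 1.55, 18.8 and 112 FPKM with the extract. Its difference was 4.16 ± 1.59 (unadjusted p = 0.00906, limma), on an estimated 3, 8 and 25.8 fragments. Ift20, a carrier of the intraflagellar transport machinery of cilia, was likewise listed at 0 in the vehicle and stood at 2.24, 10.6 and 10.1 FPKM with the extract. Cda, the cytidine deaminase of pyrimidine salvage, showed the same pattern at 1.65, 2.92 and 9.40 FPKM. For these 3 genes no vehicle library listed a fragment, so each was tested only because the extract libraries passed the filter. Dld, the dihydrolipoyl dehydrogenase shared by the pyruvate and oxoglutarate dehydrogenase complexes, stood at 0.134, 0.318 and 0 FPKM against 1.16, 5.21 and 3.54. Its difference of 1.78 ± 1.04 gave an unadjusted p of 0.0855 (limma). The processed pseudogene Gm9353 stood at 0.203, 0 and 0 FPKM against 2.14, 3.42 and 4.71, and its unadjusted p was 0.0546 (limma). Dld and Gm9353 also reached an FPKM of 1 in the extract libraries alone.

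Among the lower listed genes the differences were smaller than for Gm25099. Snora21, a box H/ACA RNA that guides pseudouridylation of ribosomal RNA, stood at 135, 205 and 230 FPKM in the vehicle and was listed at 0, 131 and 22.8 with the extract. The difference was -3.67 ± 2.22 (unadjusted p = 0.0994, limma), and the lowest vehicle library lay just above the highest extract library. After scaling the groups overlapped, and with size factors taken from the listed genes they did not. Fzd7, a Wnt receptor of intestinal stem cells, stood at 2.07, 6.26 and 4.73 FPKM against 0.199, 0.705 and 0.494, a difference of -1.80 ± 1.34 (unadjusted p = 0.180, limma). Ngrn, a mitochondrial protein needed for ribosomal RNA of that organelle, stood at 2.34, 12.6 and 23.6 FPKM against 0, 1.68 and 0. Its difference was -2.90 ± 1.55 (unadjusted p = 0.0609, limma). Cep295nl had the smallest unadjusted p of the 6 lower genes (0.0432, limma), at 1.02, 3.36 and 1.50 FPKM against 0.0607, 0 and 0. Cep295nl and Fzd7 reached an FPKM of 1 in the vehicle libraries alone and were tested only through that group.

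Among the 5861 matched genes, limma again called no gene higher (0%) or lower (0%) at an adjusted p under 0.05, with a smallest adjusted p of 1.00. At an unadjusted p under 0.05, 19 genes were higher (0.324%) and 26 lower (0.444%). Complete separation was seen for 46 genes higher with the extract (0.785%) and for 115 lower (1.96%). The median difference over all matched genes was -0.30, with 38.2% of genes above 0, and differences are read against that shift. Scaling moved the median to -0.07. After scaling 138 genes were higher (2.35%) and 116 lower (1.98%) at an unadjusted p under 0.05, and 290 higher (4.95%) and 298 lower (5.08%) genes separated the groups. No scaled gene passed the adjusted threshold either, with a smallest adjusted p of 0.0814 (limma), for Gm25099 and Gm25791.

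Gm25791 had the smallest unadjusted p of all matched genes that separated the groups. This small nucleolar RNA locus stood at 82.5, 111 and 41.5 FPKM in the vehicle libraries and was listed at 0 in the 3 extract libraries. The difference was -6.20 ± 1.84 (unadjusted p = 0.000744, limma). The intervals of the vehicle values gave an estimated 8.41, 11.1 and 0.306 fragments, the last from a wide interval. It was called lower when all 15 libraries were fitted together (adjusted p = 0.0153, limma) and with array weights (adjusted p = 0.00654, limma). The locus reached an FPKM of 1 in the vehicle libraries alone, so it was tested only through the group where it is high, and these p-values and calls are descriptions and no support for the difference. At the high dose of the extract the same locus stood at 8.08, 33.7 and 47.5 FPKM.

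Tead2, a DNA-binding partner of YAP in the Hippo pathway, stood at 13.6, 253 and 1.30 FPKM in the vehicle and at 0, 0.480 and 0 with the extract. The difference was -4.17 ± 1.68 (unadjusted p = 0.0134, limma), and the gene was called only when all 15 libraries were fitted (adjusted p = 0.0286). Its vehicle values spread over more than the distance between the groups, with library 4 far above the others. Cirbp, a cold-inducible RNA-binding protein, stood at 5.98, 27.0 and 27.6 FPKM in the vehicle and at 0.350, 0.781 and 0 with the extract, a difference of -3.73 ± 1.69 (unadjusted p = 0.0272, limma). At the high dose Cirbp stood at 26.7, 17.8 and 27.8 FPKM. Rapgef4, the cAMP sensor EPAC2, stood at 15.3, 8.45 and 22.8 FPKM against 0.229, 0.705 and 0. Tead2, Cirbp and Rapgef4 likewise reached an FPKM of 1 in the vehicle libraries alone, so their p-values and the call of Tead2 support nothing beyond the values.

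Another 5 genes of the lower side were listed at 0 in all 3 extract libraries. Tmtc4, an enzyme of cadherin O-mannosylation, stood at 10.1, 8.74 and 5.40 FPKM in the vehicle libraries. Heg1, a transmembrane protein of endothelial junctions, stood at 1.91, 22.9 and 16.7. Sh3gl3, Copz2 and Fuz, known from endocytosis, coated vesicles and cilia, had vehicle values between 1.01 and 22.2 FPKM. These genes too passed the filter only through the vehicle group.

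On the higher side of the matched genes, Tma7, a small ribosome-associated protein, was listed at 0.274, 0 and 0 FPKM in the vehicle and stood at 15.3, 16.5 and 15.3 with the extract. Its difference was 3.95 ± 1.64 (unadjusted p = 0.0163, limma). Its extract values lay close together, though their intervals were wide, with an estimated 4.34, 1.87 and 0.455 fragments. Hmg20b, a subunit of the CoREST histone demethylase complex, stood at 0.0627, 0 and 0 FPKM against 5.44, 5.90 and 23.8. Atpaf2, an assembly factor of the ATP synthase F1 head, was listed at 0 in the vehicle and stood at 1.50, 6.14 and 22.5 with the extract. Ttc4, a cochaperone of HSP90, and Cops8, a subunit of the COP9 signalosome that deactivates cullin ligases, were also listed at 0 in the vehicle. Ttc4 stood at 4.45, 5.96 and 9.21 FPKM with the extract and Cops8 at 1.66, 2.52 and 24.3. Tma7, Hmg20b, Atpaf2, Ttc4 and Cops8 reached an FPKM of 1 in the extract libraries alone, so they were tested only through the group where they are high. Rn7s2, a 7SL RNA of the signal recognition particle with near-identical copies in the genome, stood at 3.09, 13.0 and 0 FPKM against 58.4, 60.5 and 345, and its reads may be split among copies.

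**Figure D2:**
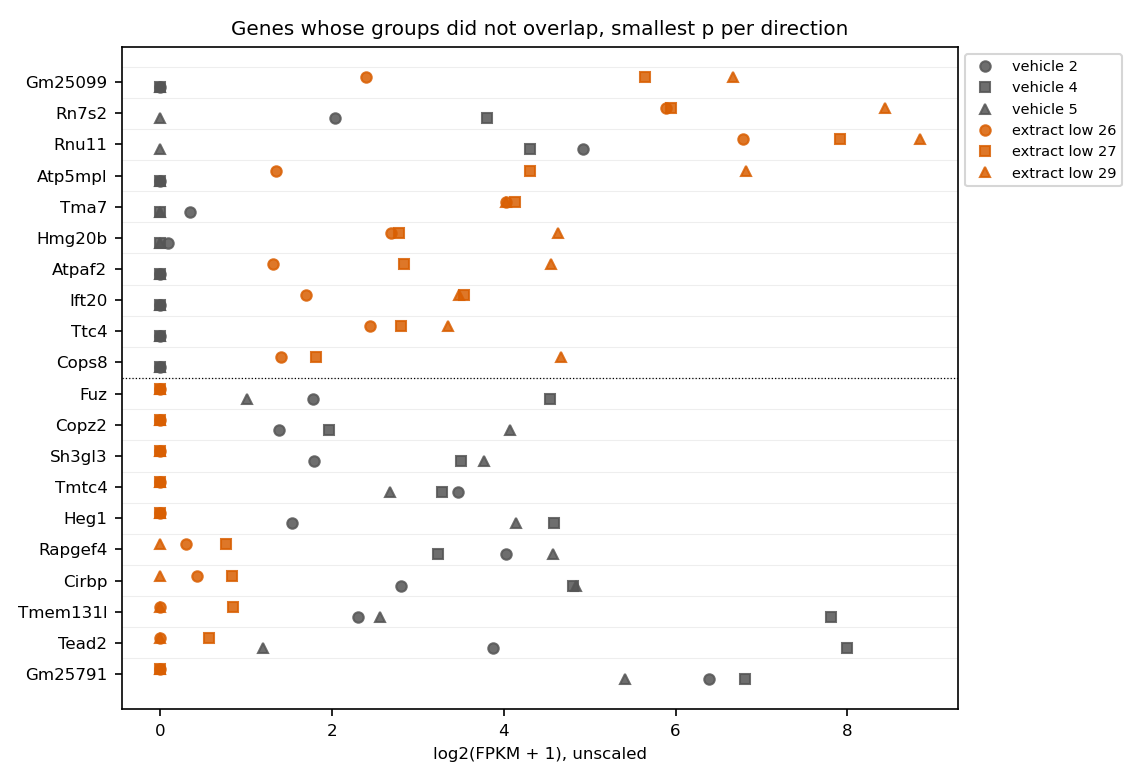
Each point is log2(FPKM + 1), unscaled, of 1 library for the 10 higher and 10 lower matched genes with the smallest unadjusted p among those whose groups did not overlap (grey vehicle, orange extract low dose, 1 marker shape per library). Many of the separations are between listings at 0 in 1 group and values in the other, as for Gm25099 (0 in the vehicle, 4.25 to 101 FPKM with the extract) and Gm25791 (41.5 to 111 FPKM in the vehicle, 0 with the extract).

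The small nuclear RNAs were looked at as a class after Gm25099 and Rnu11 were seen, so the class has no test. Of the 13 in the matched genes, 12 were higher with the extract, with a median difference of 2.25 against -0.30 over all genes, and 2 of the 13 separated the groups, both higher, beside 0.785% over all matched genes. Scaled, the median was 2.78 and 3 genes separated the groups, all higher, beside 4.95% over all matched genes. Without libraries 2 and 26 the median was 1.35. Their summed FPKM was 1823, 6355 and 8839 in the vehicle libraries and 2662, 10192 and 12046 in the extract libraries. The median small nuclear RNA rested on an estimated 0, 1.00 and 0 fragments in the vehicle libraries and 5.00, 1.99 and 3.00 in the extract libraries, and 7, 4 and 7 of the 13 were listed at 0 in the vehicle against 0, 1 and 2 with the extract. Because the class passed the filter partly through the extract libraries, its counts describe these libraries only.

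The groups of the other 11 overlapped on the unscaled values. Gm22513, the most abundant of the 13 in every library, stood at 1678, 5650 and 7716 FPKM in the vehicle and 2342, 8521 and 10345 with the extract, a difference of 0.50 ± 1.37 with overlapping groups. Rpph1, the catalytic RNA of ribonuclease P that trims transfer RNA precursors, stood at 970, 12001 and 10507 FPKM against 1941, 21199 and 22551. Rpph1 had an estimated 802 to 4667 fragments in each library. Its difference was 0.97 ± 1.31 unscaled, with overlapping groups, and 1.67 ± 0.47 scaled, where the groups did not overlap (unadjusted p = 0.00203, adjusted p = 0.802, limma). Rmrp, the related RNA of ribonuclease MRP, stood at 83.1, 870 and 1062 FPKM against 237, 1501 and 2264, and its scaled groups did not overlap either. Within each group the library of lowest level was also the lowest for Rpph1 and Rmrp.

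**Figure D3:**
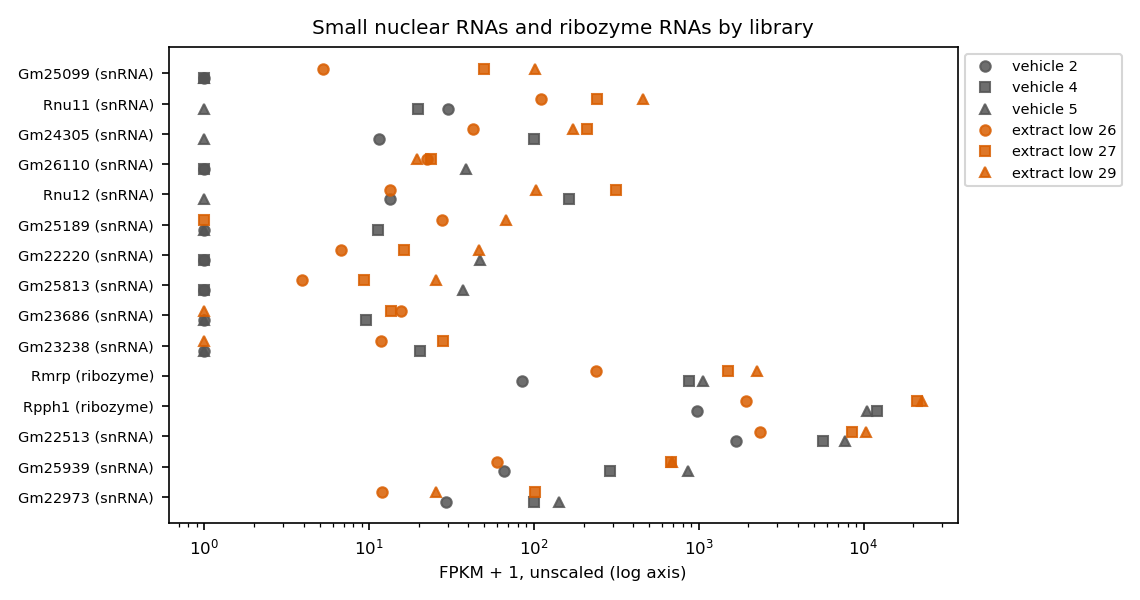
Points show FPKM + 1 on a log axis for 13 small nuclear RNAs and 2 ribozyme RNAs in each library (grey vehicle, orange extract low dose, 1 marker shape per library). Of the 13 small nuclear RNAs only Gm25099 and Rnu11 separate the groups on these unscaled values, and the others overlap, the most abundant (Gm22513, 1678 to 7716 FPKM in the vehicle, 2342 to 10345 with the extract) and the rare alike.

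Of 65 NRF2 target genes, 62 had a value in all 6 libraries and 41 were tested among the matched genes. No member passed limma's test, 0 had an unadjusted p under 0.05 and the groups of 0 members were apart on the unscaled values. Of the 41 tested, 30 were higher and 11 lower with the extract, with a median difference of 0.64 against -0.30 over all matched genes. Counting also the 21 members under the filter, 42 were higher, 18 lower and 2 equal, with a median of 0.43, against 42.6% of genes above 0 and a median of -0.10 over the 17551 genes tested without the filter. Scaled, 34 of the 41 were higher and 7 lower, 5 had an unadjusted p under 0.05, all higher, beside 2.35% higher and 1.98% lower over all matched genes. The scaled groups were apart for 8 higher members and 1 lower member, beside 4.95% higher and 5.08% lower over all matched genes. Relative to the median of all genes, the list stood at 0.94 unscaled, 0.84 scaled and 1.38 without libraries 2 and 26. It ranged from 0.52 to 1.38 over 14 alternatives.

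Promoters of 2 members are shown because they hold the element through which NRF2 binds, the core TGACNNNGC on either strand, in the window from 250 bases before to 50 after the start (RefSeq, GRCm38.p6). Of 55 target genes with a promoter in that table, 17 (30.9%) hold the core, as do 3781 of 27025 genes (14.0%). Capitals mark the core as read on the gene's strand, where GC at the left end shows the core on the opposite strand.
Prdx1, chr4:116685349-116685648, plus strand: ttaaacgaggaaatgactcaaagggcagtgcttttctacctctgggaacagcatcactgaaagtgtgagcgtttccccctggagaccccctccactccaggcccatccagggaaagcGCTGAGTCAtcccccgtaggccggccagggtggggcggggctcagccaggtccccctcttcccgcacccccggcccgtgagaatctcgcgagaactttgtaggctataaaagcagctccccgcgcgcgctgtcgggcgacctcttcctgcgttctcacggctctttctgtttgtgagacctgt
Txnrd1, chr10:82858956-82859255, plus strand: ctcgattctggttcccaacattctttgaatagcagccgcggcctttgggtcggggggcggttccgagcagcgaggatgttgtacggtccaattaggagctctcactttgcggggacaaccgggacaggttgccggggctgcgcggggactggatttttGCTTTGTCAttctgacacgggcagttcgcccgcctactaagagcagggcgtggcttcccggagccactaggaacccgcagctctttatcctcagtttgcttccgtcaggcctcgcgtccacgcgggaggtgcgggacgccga
A match describes the letters in this window and is no evidence that NRF2 was bound in these samples.

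Among the reductases of quinones and carbonyls, Nqo1, the quinone reductase most used as a readout of NRF2, was listed at 0.167, 0 and 0 FPKM in the vehicle and 0, 8.96 and 3.23 with the extract. Only 2 libraries reached an FPKM of 1, so Nqo1 was not tested. Cbr3, a carbonyl reductase, stood at 0, 0 and 15.4 FPKM against 0.965, 34.7 and 61.2. Its difference was 2.68 ± 1.77 unscaled (unadjusted p = 0.129, limma) and 3.13 ± 1.06 scaled (unadjusted p = 0.00768, limma), where the groups did not overlap. Akr1b8, an aldo-keto reductase, stood at 1.26, 0 and 0 FPKM against 0.167, 22.6 and 10.4, so library 26 lay within the vehicle range. Of the 7 tested members of this role, 5 were higher, with a median of 0.08.

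The glutathione transferases, which join electrophiles to glutathione, differed in direction among themselves. Gstm1 stood at 2.28, 14.2 and 25.8 FPKM in the vehicle and 3.93, 55.7 and 107 with the extract. On unscaled values the groups overlapped through library 26 (1.50 ± 1.98, unadjusted p = 0.450, limma), and scaled they did not (2.13 ± 0.92, unadjusted p = 0.0297, limma). Mgst3, a microsomal transferase, stood at 0, 1.06 and 7.64 FPKM against 3.93, 33.7 and 17.5, with a scaled difference of 3.34 ± 1.03 (unadjusted p = 0.00393, limma). Gstp1 stood at 1.62, 28.2 and 23.9 FPKM against 3.58, 47.2 and 33.5 and was also apart after scaling. Gstm2 went the other way, at 0.858, 8.35 and 13.9 FPKM against 0, 3.00 and 0, with its scaled groups apart (-1.75 ± 0.92, unadjusted p = 0.0724, limma). Gsta1 stood at 0, 3.94 and 0 FPKM against 0, 1.20 and 4.06 and was not separated. Of the 7 tested members 5 were higher.

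In glutathione synthesis and supply, Gclc, the catalytic subunit of the rate-limiting ligase, stood at 0.253, 17.1 and 0 FPKM against 0.376, 39.6 and 84.1. The difference was 2.57 ± 1.78 unscaled (unadjusted p = 0.150, limma) and 2.71 ± 1.09 scaled (unadjusted p = 0.0218, limma), with overlapping groups in both. Gclm, the modifier subunit, stood at 5.64, 23.6 and 12.4 FPKM against 0, 27.5 and 79.0. Its difference was 0.02 ± 1.93 unscaled and -0.34 ± 1.18 scaled, so its direction depended on the scaling. Slc7a11, the cystine importer, was at most 0.402 FPKM in the 6 libraries and was not tested.

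Of the thioredoxin and peroxide genes, Prdx1, a peroxiredoxin, stood at 2.09, 15.5 and 5.55 FPKM against 2.03, 37.1 and 27.6, with scaled groups apart (1.63 ± 0.96, unadjusted p = 0.105, limma). Txnrd1, the cytosolic thioredoxin reductase, stood at 0.831, 2.89 and 11.2 FPKM against 0.365, 36.1 and 8.58, and its difference of 0.83 ± 1.74 rested on library 27, being -0.29 without it. Its deposited intervals are so wide that under 1 fragment was estimated in each library. Srxn1, the sulfiredoxin that repairs peroxiredoxins, stood at 1.20, 2.24 and 7.20 FPKM against 0, 11.3 and 9.72, a difference of 0.39 ± 1.66 unscaled and -0.01 ± 1.07 scaled. Gpx2, the glutathione peroxidase of gut epithelium, stood at 0.447, 0 and 0 FPKM against 0.747, 7.94 and 0 and was not tested. Its values above 0 likewise had under 1 fragment estimated. In all 4 of these genes extract library 27 lay above the 3 vehicle libraries.

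Hmox1, the heme oxygenase, was listed at 0 in the vehicle libraries and at 0, 3.07 and 0 FPKM with the extract, and was not tested. The ferritin light chain Ftl1 stood at 4.78, 132 and 136 FPKM against 13.4, 176 and 298, apart after scaling (1.67 ± 0.83, unadjusted p = 0.0579, limma), while the heavy chain Fth1 stood at 31.3, 504 and 986 FPKM against 39.4, 404 and 934. Pgd, an NADPH-producing enzyme of the pentose phosphate pathway, stood at 0.677, 13.3 and 15.2 FPKM against 2.83, 34.7 and 37.4, with a scaled difference of 2.01 ± 0.94 (unadjusted p = 0.0450, limma) and scaled groups apart. All 6 NADPH genes were tested, 5 were higher and Tkt was lower, at 0.529, 21.1 and 42.4 FPKM against 0.383, 15.1 and 14.6. Ces1g, a carboxylesterase, completes the 8 members whose scaled groups were apart on the higher side, with Cbr3, Gstm1, Mgst3, Gstp1, Prdx1, Ftl1 and Pgd.

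**Figure D4:**
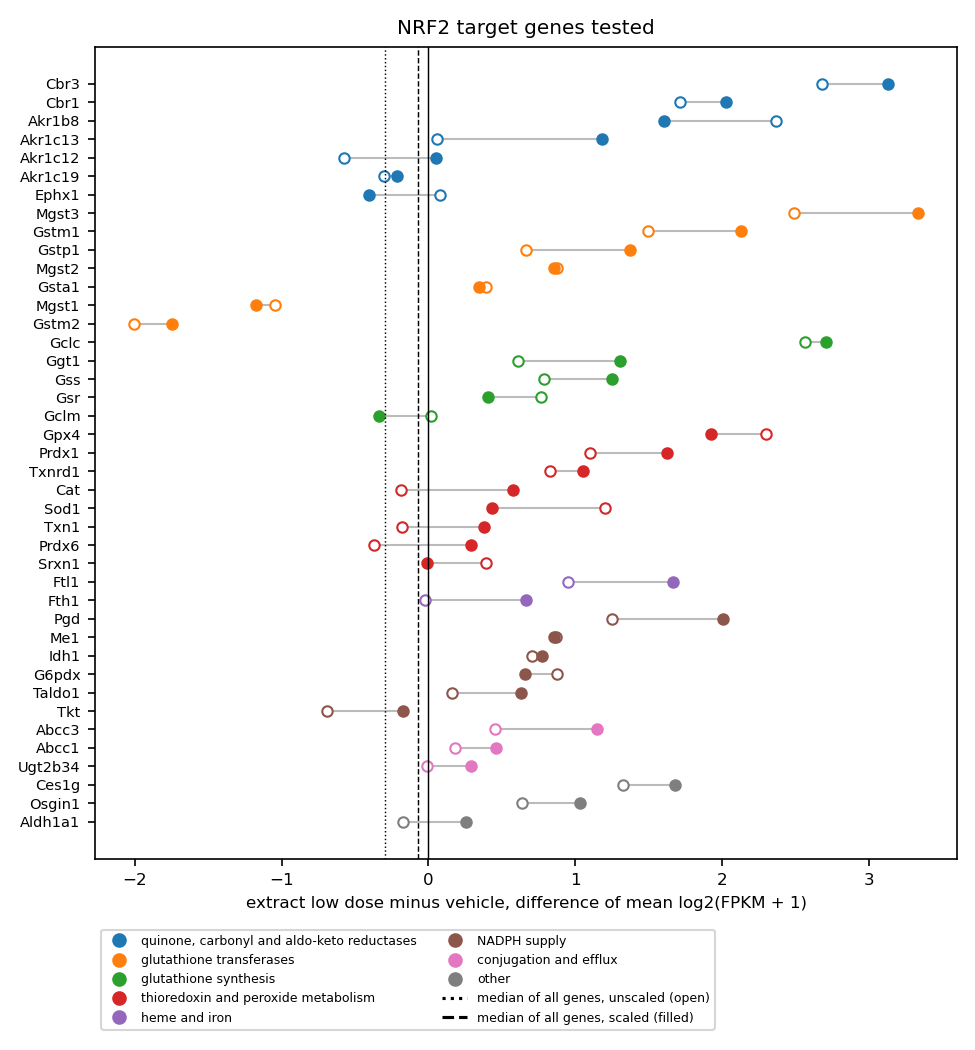
For each of the 41 NRF2 target genes tested, the difference of mean log2(FPKM + 1), extract low dose minus vehicle, is shown unscaled (open circle) and scaled (filled circle), coloured by role; the vertical lines mark 0 and the medians of all matched genes (-0.30 unscaled, -0.07 scaled). Of the filled circles 34 lie to the right of 0, while Gstm2 (-1.75 scaled) and Mgst1 (-1.18 scaled) lie to the left.

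Among the regulators of NRF2, Nfe2l2, which encodes NRF2, stood at 0.836, 3.35 and 5.11 FPKM against 0.0254, 8.52 and 3.73, a difference of -0.03 ± 1.57. Sqstm1, the p62 protein that sequesters KEAP1 and is itself an NRF2 target, stood at 2.68, 19.4 and 14.5 FPKM against 5.91, 31.6 and 46.7, with scaled groups apart (1.73 ± 0.94, unadjusted p = 0.0803, limma). Of the 9 regulators tested 3 were higher and 6 lower, and scaled 4 and 5. For other sensors of foreign compounds, 0 of the 7 tested PXR and CAR target genes were higher unscaled and 3 scaled, with Cyp2c55 at 31.4, 157 and 666 FPKM against 8.84, 243 and 378. Among the AHR target genes 1 of 7 was tested, and Cyp1a1, the best known of them, was listed at 0 in 5 of the 6 libraries and at 0.0790 FPKM in library 26.

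No goblet cell gene passed the test. Of the 8 tested, 7 were higher and 1 lower, with a median 0.80 above that of all genes unscaled, 1.41 scaled and 1.62 without libraries 2 and 26. Muc2, the gel-forming mucin, stood at 194, 536 and 838 FPKM against 66.4, 1542 and 2863, so that libraries 27 and 29 were the highest of the 6 and library 26 the lowest. Zg16, a lectin of the mucus layer, stood at 8.56, 87.2 and 74.3 FPKM against 4.85, 238 and 250, with scaled groups apart (1.46 ± 0.85, unadjusted p = 0.102, limma). Tff3, a trefoil peptide, stood at 0.406, 8.42 and 0 FPKM against 0, 91.9 and 54.8, and was called higher only with array weights (adjusted p = 0.0136, limma), which gave library 27 a weight of 6.95 and library 26 one of 0.345. Agr2, the disulfide isomerase needed for mucin folding, was the lower member, at 2.17, 53.1 and 46.0 FPKM against 0, 39.2 and 23.9. Epithelial markers as a whole stood at 0.00 relative to all genes unscaled (4 higher, 6 lower) and 0.42 scaled (8 higher, 2 lower). Scaled, they were thus above all genes too, by less than the goblet genes. The part of the epithelial level in the goblet difference was not tested.

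Of 11 tested surface colonocyte genes 4 were higher unscaled and 7 scaled, with a median 0.17 above all genes unscaled and 0.63 scaled, and Car1, a carbonic anhydrase, stood at 40.5, 421 and 1889 FPKM against 41.3, 671 and 886. Of the 4 tested enteroendocrine genes 2 were higher and 2 lower, unscaled and scaled alike. Their median was 0.35 above all genes unscaled and 0.31 scaled. Sst, somatostatin, a higher member, stood at 0, 0 and 29.1 FPKM against 1.06, 18.4 and 30.5. Of 9 antimicrobial genes 4 were tested and 3 were lower, or 2 scaled. Duox2, the dual oxidase that makes hydrogen peroxide at the mucosal surface, stood at 53.9, 2.29 and 9.37 FPKM against 0.106, 2.23 and 0.152, without overlap unscaled (-2.94 ± 1.66, unadjusted p = 0.0760, limma) and with overlap scaled. Tight junction genes stood 0.03 above all genes unscaled and 0.44 under them scaled.

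Respiratory chain and ribosomal protein genes stood slightly above the rest. Of 31 tested nuclear genes of oxidative phosphorylation, 16 were higher and 15 lower, with a median 0.39 above all genes, 0.55 scaled. On the unscaled values 0 were apart on the higher side and 1 on the lower, beside 0.785% and 1.96% over all matched genes. After scaling 5 of the 31 were apart, all higher, beside 4.95% over all matched genes. Cox6b1, a subunit of cytochrome oxidase, stood at 0.440, 21.3 and 5.09 FPKM against 8.10, 33.9 and 68.8, with a scaled difference of 3.13 ± 0.98 (unadjusted p = 0.00419, limma). Atp5b, the catalytic subunit of ATP synthase, stood at 12.7, 67.0 and 243 FPKM against 29.1, 259 and 413. Cox5a, Ndufv1 and Atp5g1 were the other members apart. Of 33 ribosomal protein genes 17 were higher and 16 lower unscaled, with a median 0.31 above all genes, and 24 were higher and 9 lower scaled, with a median 0.56 above. Rpl7 was lower without overlap, at 27.7, 71.8 and 23.9 FPKM against 0.153, 21.6 and 10.8 (-2.47 ± 1.96, unadjusted p = 0.208, limma), and overlapped after scaling. Of 23 tested proteasome genes 13 were higher, with a median 0.55 above all genes that ranged from -0.47 to 1.28 over the alternatives. Ribosomal protein genes have many processed pseudogenes, and reads shared with these may have been split.

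The MHC class II genes, which present antigen on B cells, macrophages and dendritic cells, were lower in all members with a value (7 of 7), 4 of them tested, with a median of -1.74, 1.44 under all genes. None passed the test. Cd74, the invariant chain, stood at 1.02, 325 and 7.36 FPKM in the vehicle and 0, 0.623 and 12.2 with the extract (-2.67 ± 1.79, unadjusted p = 0.135, limma). H2-Aa stood at 0, 166 and 10.7 FPKM against 0, 3.75 and 10.3, so vehicle library 4 stood far above the other vehicle libraries. B and plasma cell markers were lower in 8 of 9 members with a value and none of them was tested. Cd79b, a chain of the B cell receptor complex, was listed at 0, 111 and 0 FPKM in the vehicle and at 0 in the 3 extract libraries, so it too was present in vehicle library 4 alone. The part of these cells in the MHC class II difference was not tested. In bulk tissue, fewer cells of a type and less RNA per cell cannot be told apart.

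Fat-related genes gave opposite directions, none past the test. Of 16 genes of fatty acid synthesis, all tested, 13 were lower and 3 higher, with a median of -0.63, 0.33 under all genes, and scaled 11 were lower and 5 higher. After scaling 4 lower genes and 1 higher gene were apart, beside 5.08% lower and 4.95% higher over all matched genes. Scd1, the stearoyl-CoA desaturase, stood at 4.40, 305 and 54.0 FPKM against 1.35, 30.7 and 39.7, and Acly, the citrate lyase, at 2.43, 158 and 22.4 against 0.823, 11.7 and 14.1. Of 11 tested adipocyte genes, 9 were higher, with a median 0.72 above all genes. Cfd, the adipocyte product adipsin, stood at 2.33, 239 and 0 FPKM against 4.56, 46.1 and 92.3, and Adipoq, adiponectin, at 0, 31.9 and 0 against 0.126, 9.82 and 3.61. In both, vehicle library 4 was above its group by far, and the groups overlapped.

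No stress or clock gene had an unadjusted p under 0.05 unscaled. Of the tested members, 5 of 12 were higher in the unfolded protein response, 5 of 10 among heat shock genes, 2 of 6 among p53 targets and 2 of 12 among circadian clock genes, and scaled 9 of 12 clock genes and 7 of 12 genes of the unfolded protein response were higher. Hsp90ab1, a constitutive HSP90, stood at 12.4, 126 and 182 FPKM against 2.39, 40.1 and 50.0, lower with scaled groups apart (-1.23 ± 0.86, unadjusted p = 0.167, limma). Hspa5, the chaperone BiP, stood at 5.01, 33.1 and 20.2 FPKM against 0.410, 31.4 and 23.3. Inflammatory genes were mixed, 3 of the 6 tested higher, and none of the 7 cytokines and chemokines was tested.

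**Figure D5:**
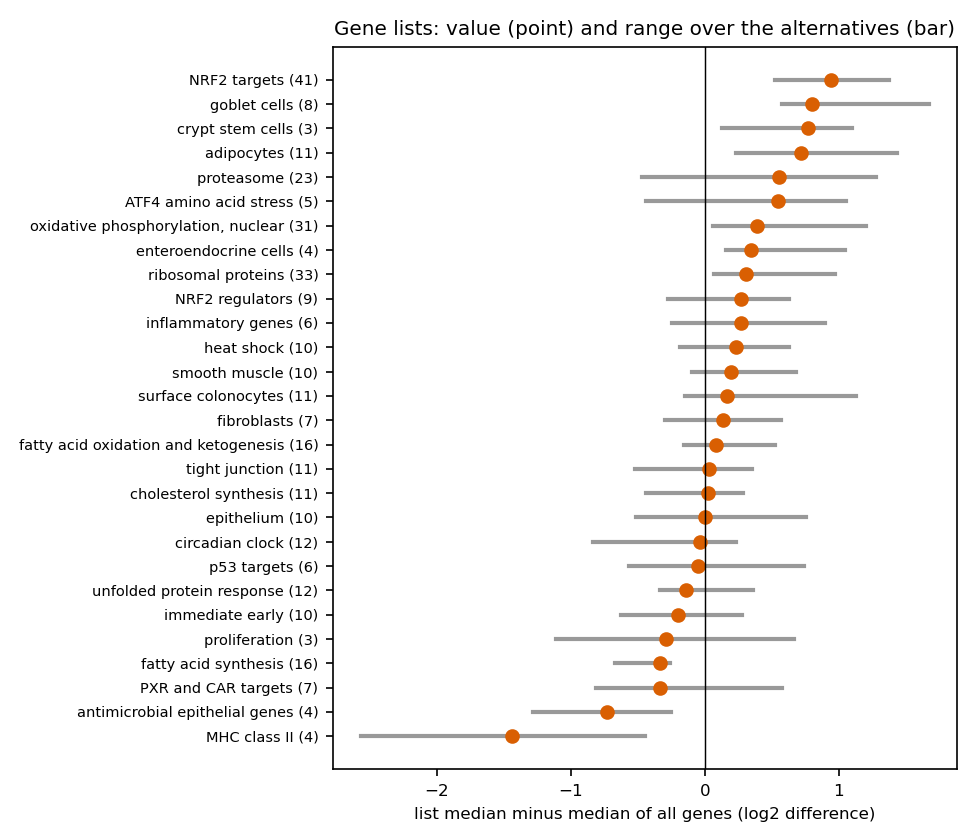
Points show, for each gene list with the number of tested members in parentheses, the median difference of its tested members minus the median of all matched genes, and bars the range over the alternatives. NRF2 targets (0.94, range 0.52 to 1.38) and goblet cell genes (0.80, range 0.58 to 1.67) lie to the right of 0 in every alternative run, and MHC class II genes (-1.44, range -2.56 to -0.44) to the left.

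Set against the high dose of 1.0 g/kg in the fit of all 15 libraries, the low dose gave 0 higher genes (0%) and 1 lower gene (0.0904%) of 1106 listed genes, and 0 higher (0%) and 1 lower (0.00862%) of 11605 matched genes, at limma's adjusted threshold. That gene was Snord11, a small nucleolar RNA listed at 0 in the 3 low dose and the 3 vehicle libraries and at 97.3, 151 and 31.0 FPKM in the high dose libraries. Its call was lost when the 6 extract libraries were fitted alone (adjusted p = 0.425, limma). Among those 6 libraries Snord11 reached an FPKM of 1 only at the high dose. Its call is thus a description and no support for the difference. The median difference, low minus high, was -0.57 over the listed and -0.89 over the matched genes. Genes entered this fit at an FPKM of at least 1 in 3 or more of the 15 libraries. Nqo1 and Hmox1, not tested against the vehicle, reached that level in the 3 high dose libraries. The counts between doses thus describe these libraries only. Of 56 NRF2 targets tested between the doses 55 were lower at the low dose, and none was called. Their median was -1.59, against -0.89 over the matched genes. These differences are unscaled and include library 26, and the part of either in the count was not tested. Such a count was not particular to NRF2 targets, as other lists show. Nuclear genes of oxidative phosphorylation were lower in 38 of 38 members (median -1.80) and ribosomal protein genes in 32 of 33 (median -1.71). Adipocyte genes went the other way, with 3 of 11 lower and a median of 0.49. Gstm1 stood at 103, 102 and 80.8 FPKM at the high dose, all above the low dose library 27 at 55.7 and under library 29 at 107. Nqo1 stood at 22.4, 7.45 and 8.03 FPKM at the high dose against 0, 8.96 and 3.23. Hmox1 stood at 23.0, 5.10 and 2.96 FPKM against 0, 3.07 and 0. Epithelial genes were lower at the low dose in 10 of 10 members, with a median of -1.86, as the NRF2 targets were. The part of the epithelial level in the difference of the NRF2 targets was not tested.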

How the data were processed

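RNA of the large intestine (90 ng total RNA, ribosomal RNA depleted, low-input libraries, per the labels' protocols) was read with STAR 2.4.0j on GRCm38.p4, per the submitters' processing notes. Which program quantified the reads, and on which annotation, is not stated in the labels or headers. The deposited tables give each gene's FPKM with an interval, per the file headers. FPKM is not a count, so log2(FPKM + 1) was tested with limma 3.58.1 in R 4.3.3 (mean-variance trend, two-sided, Benjamini-Hochberg threshold 0.05), on genes that reached an FPKM of 1 in 3 or more of the 6 libraries. The fit of the low against the high dose instead took genes with a value in all 15 libraries. These had an FPKM of at least 1 in 3 or more of the 15. An assembled locus stood for a gene when each was the other's best match and overlap covered at least 0.5 of their joint span. Fragments were estimated as (FPKM / (0.5 × distance to the upper bound)), squared. The limma fit was run on simulated data with independent noise for each gene. Those data lacked the differences in scale between libraries and the listings at 0, so they do not show how the fit behaves with these.

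The genes and lists were chosen with earlier results of these data known. Genes named were, in each direction, up to 10 without overlap between groups and with the smallest p, 13 NRF2 or AHR targets fixed by name, and up to 4 members of each list with the highest mean FPKM or an unadjusted p under 0.05. Further members of lists were named after their values were seen, among them Gstm2, Gstp1, Mgst1, Mgst3, Prdx1, Pgd, Tkt, Ces1g, Agr2, Epcam, Cd79b, Adipoq, Rpl7, Cox5a, Cox6b1, Ndufv1 and Atp5g1. Alternatives were another pseudocount (0.1), filters, scalings, array weights, all 15 libraries in 1 fit, assembled loci and leaving out each library. Leaving out libraries 2 and 26 together, and the alternatives on the matched genes, were added after seeing the data. The sequence of 1 small nuclear RNA is not reported here.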

Additional observations from a re-analysis of the deposited data

How the results depend on the processing

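No paired analysis was possible because the replicate numbers of the 2 groups (2, 4, 5 and 26, 27, 29) share none. The settings tested unlike numbers of genes. These were 5744 without the filter, 207 at an FPKM of at least 5, 233 with all 15 libraries and 5861 with assembled loci. The other settings of the listed genes tested 687, so counts from sets of unlike size cannot be compared directly. Among the listed genes, 1 was called higher with median-of-ratios scaling, 1 with quantile normalization, 1 with all 15 libraries and 3 with array weights. Both normalizations called Gm25099, all 15 libraries called Gm9353, and array weights called Gm25099 and Atp5mpl among their 3. Gm25099, Gm9353 and Atp5mpl reached an FPKM of 1 in the extract libraries alone. Their calls are thus descriptions and no support for a difference. Genes higher at an unadjusted p under 0.05 numbered 24 without the filter, 1 at an FPKM of at least 5, 25 with median-of-ratios scaling, 20 with quantile normalization, 41 with array weights, 19 with assembled loci, 2 to 24 leaving out 1 library and 27 without libraries 2 and 26. Lower genes numbered 10, 1, 10, 17, 5 and 26 in the same order, 7 with all 15 libraries, 0 to 7 leaving out 1 library and 6 without libraries 2 and 26. Higher genes without overlap numbered 50 without the filter, 3 at an FPKM of at least 5, 38 with median-of-ratios scaling, 37 with quantile normalization, 5 with all 15 libraries, 46 with assembled loci, 11 to 107 leaving out 1 library and 112 without libraries 2 and 26. Lower genes without overlap numbered 20, 1, 36 and 44 for the same filters and scalings, 115 with assembled loci, 6 to 132 leaving out 1 library and 133 without libraries 2 and 26. Of the matched genes, array weights called 11 higher and 1 lower, and all 15 libraries 2 lower, Gm25791 and Tead2. Gm25791 and Tead2 were tested only through the vehicle libraries, where they are high. The gene lower than at the high dose was lost (0 in both sets) when the 2 extract groups were fitted alone. Gclm turned to -0.99 with a pseudocount of 0.1, -0.34 with median-of-ratios scaling, -0.46 without library 2, -0.54 without 27 and -1.28 without 29, against 1.88 without 26. Srxn1 turned to -0.33 with a pseudocount of 0.1, -0.01 (-0.0124) with median-of-ratios scaling, and -0.02, -0.25 and -0.15 without libraries 2, 27 and 29, against 1.56 without 26. Txnrd1 turned to -0.29 without library 27, against 2.09 without 26, and Gsta1 to -0.20 without library 29, against 1.16 without 4. Fewer genes or libraries enter the filters and omissions; the cause of the other shifts was not tested. Of the single genes and lists under each setting, 893 values kept their direction and their side of the threshold or moved by less than the spread, 42 moved further and 9 passed a threshold. Values under 1 estimated fragment limit what low FPKM can show.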
